A study of Homo sapiens with 4 samples.

Results

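The genes described here are 36 genes of the endoplasmic reticulum folding machinery and the unfolded protein response, chosen by name, of 19090 named genes on the array. They comprise the stress sensors, the transcription factor XBP1, chaperones and their cofactors, disulfide enzymes, degradation factors, and translocation and vesicle coat genes. Genes listed under the amino acid response were left out of the choice, among them ATF4 and DDIT3, through which the sensor PERK also acts. All 36 had a named probe, 24 of them 1 probe and 12 several, which made 50 probes. The samples were HepG2 by label (a line derived from human liver cancer). They were transfected with a negative control duplex (NC control, here NC), with miR214 mimics, or with 1 of a pair of small interfering RNAs, siPVT1-1 and siPVT1-2, against the long noncoding RNA PVT1. The cells of all 4 groups had the same serum-containing culture and transfection reagent and differed in the duplex, and no time after transfection is given in the sources used here. Total RNA of each transfection was hybridised to 1 OneArray Plus array, so each value below is a single measurement, no p-value is given, and every difference from NC rests on the same NC array.

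Proteins that enter the endoplasmic reticulum fold there with the help of chaperones, sugar-binding lectins and enzymes that form disulfide bonds. When unfolded protein accumulates, the membrane sensors IRE1 (gene ERN1), PERK (EIF2AK3) and ATF6 start the unfolded protein response. IRE1 splices XBP1 mRNA into the form that encodes an active transcription factor, PERK slows translation and favours that of ATF4, and ATF6 is cut to release a transcription factor of its own. XBP1 and ATF6 induce chaperones and the factors that send misfolded proteins to the proteasome. Hepatocytes, which secrete much of the plasma protein, depend heavily on this machinery.

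The mimic stands for miR-214, whose mature arms are shown because the transfected strand is not named in the sources used here. They are printed from RefSeq, build GRCh38.p14, with the seed (bases 2 to 8) in capitals. The 3p arm lies at chr1:172138816-172138837 and the 5p arm at chr1:172138857-172138878, both on the minus strand. XBP1 has been described in the literature as a target of miR-214; sites in transcripts were not analysed here.
hsa-miR-214-3p: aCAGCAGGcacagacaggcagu
hsa-miR-214-5p: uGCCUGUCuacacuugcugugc

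Levels are log2 of the quantile-normalized intensity, and differences between arrays are differences of these log2 levels. Genes were compared when the mean log2 level of their brightest probe exceeded 9.72, the median of all probes, and a gene was called higher or lower when it differed at least 2-fold, which is 1 on the log2 scale. Of the 36 genes, 32 passed this filter, and each of these lay above it on all 4 arrays; ERN1, HSPA5, ERO1B and DERL2 did not pass. Between the siPVT1 arrays the central 95% of all compared genes differed by -0.58 to 0.47, which describes how far arrays of different duplexes against the same RNA lay apart. Median deposited intensities ranged from 784.1 to 926.9 over the 4 arrays. Of 14 hepatocyte markers with a probe, 3 (APOA1, SERPINA1 and RBP4) passed the filter, and albumin (ALB) and alpha-fetoprotein (AFP) did not. Of the markers of other cells, 3 of 8 for fibroblasts, 2 of 5 for endothelium, 1 of 4 for blood cells and 2 of 5 for other epithelia passed, and no marker that passed differed 2-fold from NC on any array. With NC, the hepatocyte markers that passed stood at 10.52 (APOA1), 9.95 (SERPINA1) and 10.89 (RBP4), and ALB stood at 6.73. LUM (16.32), KRT7 (15.75), DCN (14.52), KRT14 (13.42) and COL1A1 (12.52) stood higher. CD14 (11.21), VWF (10.15) and PECAM1 (9.85) were the other markers that passed. The hepatocyte markers thus do not bear out the HepG2 label, and the identity of the cells was not tested. PVT1 itself was not analysed here, so these arrays give no check of its knockdown.

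Few of the genes differed 2-fold from NC. With the mimic, 2 of 32 were lower, XBP1 and the cochaperone DNAJB9, and 0 were higher. This is 6.25% of the genes, against 2.84% of 10667 genes called lower and 1.95% called higher. With siPVT1-1, 3 were lower, XBP1, DNAJB9 and the degradation factor HERPUD1, and 1 was higher, the oxidase ERO1A. The shares of all genes called were 1.72% lower and 1.25% higher. With siPVT1-2, the same 3 genes were lower and 0 were higher, against 1.2% and 1.33% of all genes. XBP1 and DNAJB9 were lower on all 3 treated arrays, as were 0.609% of all genes, and 0 of 32 were higher on all 3, against 0.516%. The median difference of the 32 genes was -0.04 with the mimic, -0.18 with siPVT1-1 and -0.05 with siPVT1-2, and that of all genes compared was -0.02, 0.01 and -0.01. The median with the mimic and with siPVT1-2 lay above 0 when each array was centred on its own median, which also raised the median of all genes to 0.11 and 0.16.

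**Figure D1:**
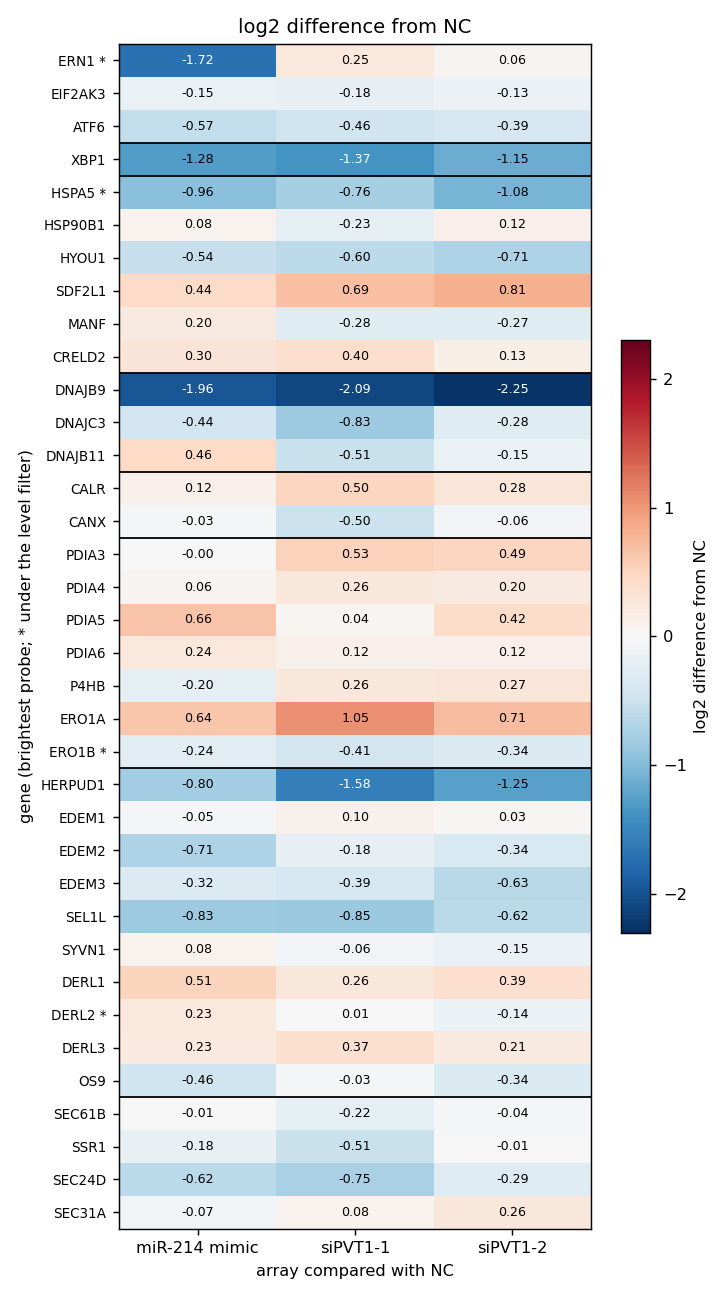
log2 difference from NC for the 36 genes (rows, ordered by role with a line between roles, brightest probe each) on the 3 treated arrays (columns); blue is lower and red higher than NC, and an asterisk marks the 4 genes that did not pass the level filter. DNAJB9 (-1.96, -2.09 and -2.25), XBP1 and HERPUD1 stand out as lower, and most other cells lie within 1 of NC.

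The sensors came first in the pathway and lay within 2-fold of NC where they passed the filter. EIF2AK3, the kinase PERK, stood at a log2 level of 13.22 with NC, 13.07 with the mimic, 13.04 with siPVT1-1 and 13.09 with siPVT1-2. Its values thus lay within 0.18 of NC on every treated array. ATF6 stood at 11.32, 10.75, 10.86 and 10.93 in that order, with NC highest and differences of -0.57, -0.46 and -0.39, all within 2-fold. ATF6 ranked 1056 from the lowest of 10667 genes with the mimic, 1068 of 10668 with siPVT1-1 and 1513 of 10667 with siPVT1-2. A second ATF6 probe gave -0.16, -0.53 and -0.38. ERN1, the kinase and RNase IRE1, was dim on all arrays and did not pass the filter. Its brighter probe gave 8.74, 7.02, 8.99 and 8.80, so the mimic array alone was low, by 3.3-fold. Its second probe, at 8.05, 8.16, 8.18 and 7.98, did not show this, so no direction is given for ERN1.

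XBP1, the transcription factor that IRE1 activates, had a log2 level of 15.36 with NC against 14.08 with the mimic, 13.99 with siPVT1-1 and 14.21 with siPVT1-2. NC was highest, and the treated arrays lay within 0.22 of each other. The deposited intensity was 40728 with NC and 17694, 16284 and 18669.8 with the 3 treatments. Relative to NC, XBP1 was lower by 2.43-fold with the mimic, 2.58-fold with siPVT1-1 and 2.22-fold with siPVT1-2. It ranked 136 from the lowest of 10667 genes with the mimic, 79 of 10668 with siPVT1-1 and 89 of 10667 with siPVT1-2. With each array centred on its median, the siPVT1-2 difference was -0.88, within 2-fold. The RNA came from whole cultures, so fewer expressing cells and less RNA per cell cannot be told apart, here and below. Splicing of XBP1 mRNA was not analysed here.

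DNAJB9 had the lowest difference of the 32 genes on each treated array. It encodes ERdj4, a J-domain protein that partners the chaperone BiP and is a known target of XBP1. Its log2 level was 12.33 with NC, 10.37 with the mimic, 10.23 with siPVT1-1 and 10.08 with siPVT1-2. The deposited intensities were 5307, 1290.4, 1190.1 and 1015. All 3 treated arrays lay at least 1.96 below NC and within 0.29 of each other. The gene was 3.89-fold lower with the mimic, 4.27-fold lower with siPVT1-1 and 4.76-fold lower with siPVT1-2. Its rank from the lowest was 29, 19 and 10 in that order, and under each alternative scaling it differed more than 2-fold on all 3 arrays.

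HERPUD1, a membrane protein of the degradation complex that both the unfolded protein response and the amino acid response can induce, separated the treatments more. Its log2 level was 17.41 with NC, 16.61 with the mimic, 15.83 with siPVT1-1 and 16.15 with siPVT1-2. NC was highest and the mimic array lay between NC and both siRNA arrays. It was 1.74-fold lower with the mimic, 2.99-fold lower with siPVT1-1 and 2.38-fold lower with siPVT1-2. With each array centred on its median, the siPVT1-2 difference was -0.92, within 2-fold.

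The promoters of these lower genes are printed below beside that of HSPA5, because the known elements of the response lie there and can be read in them. The windows run from 250 bases before to 50 bases after an annotated start, from RefSeq, build GRCh38.p14, each in the direction of its gene. Capitals in XBP1 and HSPA5 mark the endoplasmic reticulum stress element (ERSE), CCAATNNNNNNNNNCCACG. Capitals in HERPUD1 mark, first, the amino acid response core TGATGCAA on the opposite strand and, second, ERSE-II, ATTGGNCCACG. Capitals in DNAJB9 mark CCACG on either strand and CCAAT, which there do not form an ERSE. The windows lie at chr22:28800520-28800819 on the minus strand for XBP1, chr7:108569624-108569923 on the plus strand for DNAJB9, chr16:56931892-56932191 on the plus strand for HERPUD1 and chr9:125241294-125241593 on the minus strand for HSPA5.
XBP1: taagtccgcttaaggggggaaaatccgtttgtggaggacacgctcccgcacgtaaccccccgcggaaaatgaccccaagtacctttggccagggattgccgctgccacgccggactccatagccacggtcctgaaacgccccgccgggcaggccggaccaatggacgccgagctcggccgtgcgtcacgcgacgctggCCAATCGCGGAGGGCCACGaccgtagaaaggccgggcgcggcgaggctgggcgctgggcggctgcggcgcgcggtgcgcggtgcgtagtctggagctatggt
DNAJB9: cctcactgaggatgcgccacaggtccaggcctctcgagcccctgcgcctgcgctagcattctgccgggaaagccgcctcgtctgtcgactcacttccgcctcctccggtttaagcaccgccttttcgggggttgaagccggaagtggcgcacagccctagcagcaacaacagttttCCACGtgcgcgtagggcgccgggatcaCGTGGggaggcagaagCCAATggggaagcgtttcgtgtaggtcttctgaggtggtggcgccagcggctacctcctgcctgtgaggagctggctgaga
HERPUD1: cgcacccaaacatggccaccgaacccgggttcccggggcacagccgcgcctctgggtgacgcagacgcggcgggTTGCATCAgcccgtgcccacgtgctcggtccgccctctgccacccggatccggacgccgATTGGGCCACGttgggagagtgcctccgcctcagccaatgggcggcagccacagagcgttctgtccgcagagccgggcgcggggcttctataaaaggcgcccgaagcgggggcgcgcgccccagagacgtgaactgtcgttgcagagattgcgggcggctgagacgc
HSPA5: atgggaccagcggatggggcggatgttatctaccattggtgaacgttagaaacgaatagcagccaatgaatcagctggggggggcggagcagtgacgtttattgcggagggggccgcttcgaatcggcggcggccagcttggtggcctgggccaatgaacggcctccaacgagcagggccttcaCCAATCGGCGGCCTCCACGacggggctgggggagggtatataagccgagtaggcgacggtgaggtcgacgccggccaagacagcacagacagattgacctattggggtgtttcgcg

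Each motif was searched on both strands in 35116 windows of 27305 genes, among them windows of 32 of the 36 genes; PDIA3, DERL1, DERL3 and SEC24D had none here. ERSE was found for 8 of these 32 genes, or 25%, and for 0.0916% of all genes with a window. The 8 were XBP1, HSPA5, HSP90B1, CRELD2, CALR, CANX, PDIA6 and ERO1B. Since the element was originally defined on promoters of such chaperone genes, this share is a description and not independent evidence. In the printed XBP1 window it began 52 bases before the start and in HSPA5 66 bases before it. XBP1 has 2 windows, of which the 1 with more motif matches is printed, and the other had no ERSE. ERSE-II was found for HYOU1, SDF2L1 and HERPUD1, 9.38% of the 32 and 0.0696% of all genes, and began 117 bases before the start of HERPUD1. It ends in CCACG, as ERSE does. The core TGACGTGG of the XBP1-binding element was found for HYOU1 alone among the 32, where it overlaps an ERSE-II, and for 0.927% of all genes. The amino acid response core was found for HERPUD1 alone among the 32 and for 1.08% of all genes. The shorter parts were common, CCAAT in 84.4% and CCACG in 75% of the 32 genes, against 39.7% and 42.1% of all genes.

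Most genes with an ERSE that passed the level filter lay within 2-fold of NC. Of the 8 genes with the element, 6 passed the level filter, and XBP1 was the 1 called lower on each treated array. Their median differences were 0.10 with the mimic, -0.06 with siPVT1-1 and 0.12 with siPVT1-2. HSPA5 (-0.96, -0.76 and -1.08) and ERO1B (-0.24, -0.41 and -0.34) also have the element and lay below NC on each treated array. Both were under the filter and are not in these medians. Of the 3 genes with ERSE-II, HERPUD1 had the lowest difference and SDF2L1 the highest on each array. DNAJB9 was among the 19 genes above the filter with neither element in their windows, whose medians were -0.15, -0.18 and -0.15.

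**Figure D2:**
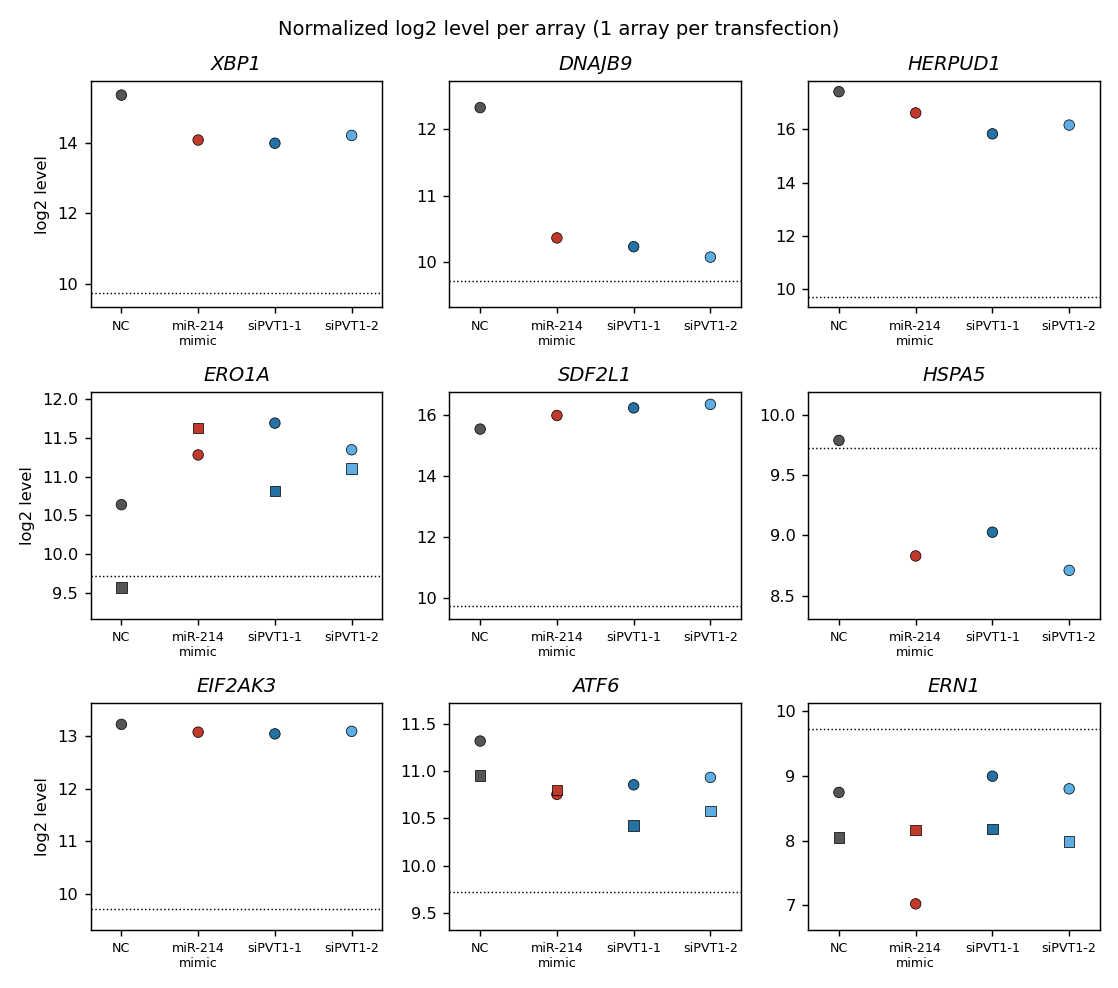
Normalized log2 level of 9 genes on each array (x axis, grey NC, red mimic, dark and light blue the siPVT1 arrays); 1 point is 1 array, squares are the second probe of a gene, the dotted line is the level filter at 9.72, and the y axes differ between panels. NC is highest for XBP1, DNAJB9 and HERPUD1 and lowest for SDF2L1 and both ERO1A probes, while ERN1 lies below the line on all arrays.

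The Hsp70 and Hsp90 chaperones and their cofactors split. HSPA5 encodes BiP, the main Hsp70 chaperone of the compartment and the usual readout of the response. Its 1 probe was dim, at 9.79 with NC, 8.83 with the mimic, 9.03 with siPVT1-1 and 8.71 with siPVT1-2. NC was highest, but the 3 treated values lay under the filter level, so the differences of -0.96, -0.76 and -1.08 have an uncertain size and are not counted. HYOU1, a further Hsp70-type chaperone that also exchanges nucleotide on BiP, stood at 11.27, 10.74, 10.68 and 10.56. It was 1.45-fold, 1.51-fold and 1.63-fold lower, below NC on each array and within 2-fold.

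The other cofactors of BiP and Hsp90 lay at or above NC for the most part. SDF2L1, a resident cofactor of BiP and ERdj proteins, stood at 15.52 with NC and at 15.97, 16.22 and 16.33 with the treatments in the same order. NC was lowest, and the gene was 1.36-fold, 1.62-fold and 1.75-fold higher. With each array centred on its median, the siPVT1-2 difference of SDF2L1 was 1.09 and passed 2-fold. HSP90B1, which encodes the Hsp90 chaperone GRP94, stood at 14.13, 14.22, 13.90 and 14.25, with NC between the treated arrays. CRELD2, a secreted stress-inducible protein, had differences of 0.30, 0.40 and 0.13. MANF, a secreted protein that binds BiP, had differences of 0.20, -0.28 and -0.27, so only the mimic array lay above NC.

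Among the J-domain cochaperones no other gene was as far below NC as DNAJB9. DNAJC3, the inhibitor of PERK known as p58IPK, stood at 12.81, 12.37, 11.98 and 12.53, with NC highest and 1.36-fold, 1.78-fold and 1.22-fold lower values. Its second probe, with a mean under the filter, gave -0.89, -0.72 and -0.74. DNAJB11, known as ERdj3, stood at 14.50, 14.96, 13.99 and 14.35. The mimic array was highest and the siPVT1-1 array lowest, with NC between. The lectin chaperones calreticulin (CALR) and calnexin (CANX), which hold glycoproteins during folding, lay within 2-fold. CALR had differences of 0.12, 0.50 and 0.28 and CANX of -0.03, -0.50 and -0.06, so with siPVT1-1 the pair went opposite ways.

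The disulfide enzymes tended to lie at or above NC. Of the 6 that passed the filter, 6 lay above NC with each siRNA and 4 with the mimic, and the medians were 0.15 with the mimic, 0.26 with siPVT1-1 and 0.34 with siPVT1-2. Over all genes, 51.9%, 48.4% and 51.3% lay below NC. ERO1A, the oxidase that passes oxidising power to protein disulfide isomerase and is also known to be induced by hypoxia, stood at 10.64 with NC, 11.28 with the mimic, 11.69 with siPVT1-1 and 11.35 with siPVT1-2. NC was lowest, and the gene was 1.56-fold, 2.08-fold and 1.64-fold higher. A second probe, at 9.57, 11.63, 10.82 and 11.10, also had NC lowest and gave 4.18-fold, 2.38-fold and 2.9-fold, although its NC spot lay under the filter level. With the probes averaged ERO1A passed 2-fold on all 3 treated arrays, and with the values as deposited the siPVT1-1 difference was 0.94. Its paralog ERO1B was dim, with differences of -0.24, -0.41 and -0.34, and a second probe at the floor on all arrays.

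By brightest probes the isomerases lay closer to NC than ERO1A with each siRNA. With the mimic PDIA5 lay as far from NC as ERO1A (0.64). PDIA5 had differences of 0.66, 0.04 and 0.42, PDIA3 of -0.0043, 0.53 and 0.49, and P4HB, the founding protein disulfide isomerase, of -0.20, 0.26 and 0.27. P4HB and PDIA3 were thus higher on both siRNA arrays than on the mimic array, and PDIA5 was highest on the mimic array. PDIA4 and PDIA6 lay within 0.26 of NC on each array. A second PDIA3 probe, under the filter, gave 0.11, -0.30 and 0.01.

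The degradation genes beyond HERPUD1 lay within 2-fold by their brightest probes. SEL1L, the scaffold of the ubiquitin ligase that removes misfolded proteins, stood at 11.76 with NC and 10.93, 10.90 and 11.14 with the treatments. NC was highest, with 1.78-fold, 1.81-fold and 1.54-fold lower values, but its second probe gave 0.01, -0.16 and -0.20 and did not show this size. A further SEL1L probe was dim and stood at the floor on the siPVT1-2 array alone. SYVN1, the ligase HRD1 that SEL1L holds, lay within 0.15 of NC on each array by its brightest probe. A second SYVN1 probe gave 0.04, -0.29 and -0.11. Of the mannosidase-like EDEM genes, which mark glycoproteins for removal, EDEM1 lay within 0.10 of NC, EDEM2 had differences of -0.71, -0.18 and -0.34, and EDEM3 of -0.32, -0.39 and -0.63. The lectin OS9 had differences of -0.46, -0.03 and -0.34. The derlins are membrane proteins of the exit channel. DERL3 had differences of 0.23, 0.37 and 0.21, DERL2 was dim, and DERL1 has no settled direction, because its probes gave 0.51, 0.26 and 0.39 against -0.42, -0.65 and -0.60.

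Translocation and vesicle coat genes also lay within 2-fold by their brightest probes. SEC24D, a cargo adaptor of the COPII coat, stood at 12.06, 11.45, 11.31 and 11.77, with NC highest and 1.53-fold, 1.68-fold and 1.22-fold lower values. SEC31A, the outer coat subunit, had differences of -0.07, 0.08 and 0.26. SEC61B, a subunit of the translocation channel, lay within 0.22 of NC on each array by both probes. SSR1, of the translocon-associated complex, had differences of -0.18, -0.51 and -0.01. A second SSR1 probe gave -1.21, -0.31 and -0.53 and so passed 2-fold with the mimic where the brightest did not. A further SSR1 probe, under the filter, gave -0.55, -0.03 and 0.0019.

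Some of the genes were grouped by arm of the response, each set to 1 arm after published work although others may drive it too. They again differed within each arm. No PERK arm was grouped, as ATF4 and DDIT3 were in the amino acid response list. Of 10 genes set to the XBP1 arm, 2 were lower on each treated array, DNAJB9 and XBP1, which is the arm's own transcription factor. Over all genes, 2.84% were lower with the mimic, 1.72% with siPVT1-1 and 1.2% with siPVT1-2. The medians of the 10 were -0.12, -0.51 and -0.09. By their brightest probes the other 8 lay within 2-fold on each array, among them EDEM1 and PDIA6 near NC. Of 7 genes of the ATF6 arm above the filter, 0 were lower with the mimic and 1, HERPUD1, with each siRNA. Their medians were 0.06, -0.23 and 0.12. HSPA5, also of the ATF6 arm, was under the filter and is not among the 7.

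**Figure D3:**
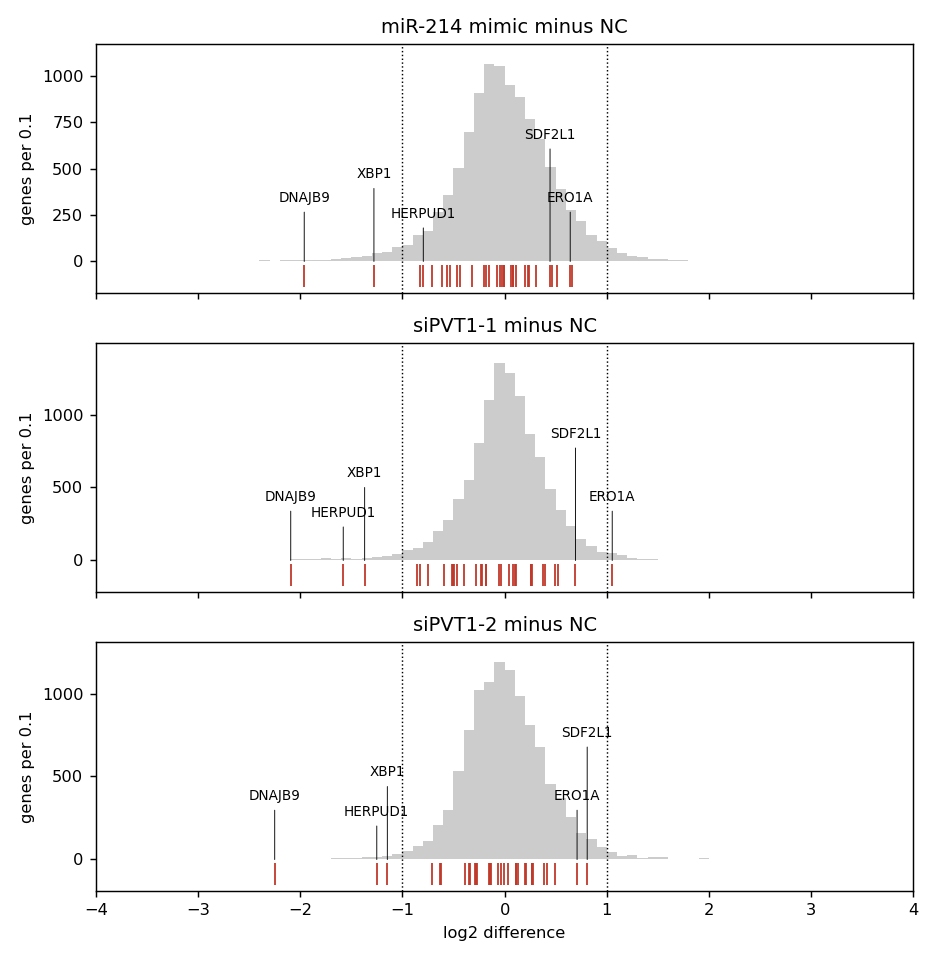
Number of genes per bin of 0.1 against the log2 difference for the 3 treated arrays minus NC (grey bars, all compared genes, values beyond 4 drawn at the edge); red ticks are the 32 genes above the filter and dotted lines mark 2-fold. DNAJB9 and XBP1 lie in the left tail of each panel, and most ticks lie under the bulk of the bars.

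At the smaller size of 1.5-fold more genes were counted. With the mimic 6 of 32 genes, or 18.8%, were at least 1.5-fold lower, XBP1, DNAJB9, HERPUD1, EDEM2, SEL1L and SEC24D, against 9.42% of all genes. With siPVT1-1 it was 7, with HYOU1 and DNAJC3 in place of EDEM2, against 6.45%, and with siPVT1-2 it was 6, against 5.8%. Higher by 1.5-fold were 2 genes on each array, PDIA5 and ERO1A with the mimic and SDF2L1 and ERO1A with each siRNA, or 6.25%, against 9.46%, 6.72% and 7.47% of all genes. XBP1, DNAJB9, HERPUD1 and SEL1L were at least 1.5-fold lower on all 3 treated arrays, as were 2.31% of all genes, and ERO1A was higher on all 3, as were 2.75%. Without regard to size, NC was the highest array for 15 of the 32 genes, or 46.9%, against 30.8% of all genes. It was the lowest for 9, or 28.1%, against 30%. Some of these positions rest on differences whose sign changed with the processing, so the shares are not firm. Among the 15 these include SEC61B (-0.01 with the mimic, -0.04 with siPVT1-2) and CANX (-0.03 and -0.06). Among the 9 they include DERL1 with each siRNA.

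Comparisons without the NC array asked whether the treatments differed among themselves. Between the siPVT1 arrays 0 of 32 genes passed 2-fold, while 0.403% of all genes were lower and 0.0937% higher with siPVT1-1. At 1.5-fold 0 of 32 passed as well, against 2.35% of all genes lower and 0.966% higher. Below 0, whatever the size, were 19 of the 32 genes and 44% of all genes. The widest gaps were DNAJC3 at -0.55 and SSR1 at -0.50 for siPVT1-1 minus siPVT1-2. Between the mimic and the mean of the siPVT1 arrays, 0 of 32 passed 2-fold, against 1.35% of all genes lower and 0.469% higher with the mimic. DNAJB11 (0.79) and HERPUD1 (0.62) were at least 1.5-fold higher with the mimic, or 6.25% of the genes, as were 3.7% of all genes, and 0 were lower by that size, against 4.31%. At the other end PDIA3 stood at -0.51 and P4HB at -0.47. For XBP1 this difference was -0.02 and for DNAJB9 0.21, so their levels on the mimic array were close to those on the siRNA arrays.

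**Figure D4:**
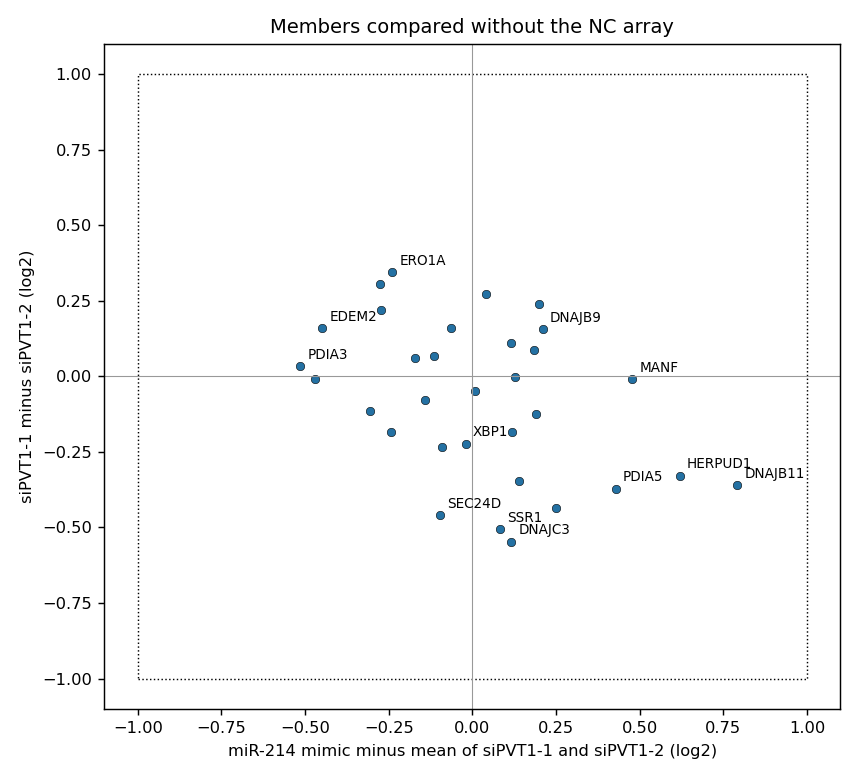
The 32 genes above the filter by their log2 difference between the mimic and the mean of both siPVT1 arrays (x axis) and between siPVT1-1 and siPVT1-2 (y axis); each point is 1 gene and the dotted square marks 2-fold. All points lie inside the square, with DNAJB11 (0.79) and HERPUD1 (0.62) farthest to the right.

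Of the wider pathway, 6 further lists were read on the same arrays. Over all genes, 2.84% were lower with the mimic, 1.72% with siPVT1-1 and 1.2% with siPVT1-2. The shares higher were 1.95%, 1.25% and 1.33%. Among 18 genes of folding above the filter, 1 was lower with the mimic, 3 with siPVT1-1 and 1 with siPVT1-2. HSPA13, a small Hsp70-type protein of microsomes, had differences of -1.46, -1.69 and -1.36 and was lower on each array. GANAB, a subunit of the glucosidase that trims glycoproteins, had 0.89, 1.11 and 0.81 and was higher with siPVT1-1 only. Of 13 degradation genes and 19 translocon and entry genes, 0 passed 2-fold on any array. UFD1 was the highest of the degradation list, at 0.79, 0.68 and 0.93. The translocon list had medians of -0.28, -0.22 and -0.13 with SEC61A1 at -0.81, -0.90 and -0.52. Of 12 genes of the COPII coat and retrieval, ARFGAP3 (-0.45, -1.18 and -0.48) was the 1 past 2-fold, with siPVT1-1. Of 11 regulators of the response, 0 passed 2-fold, and NFYC, a subunit of the factor that binds CCAAT, stood at -0.62, -0.50 and -0.75. Of the other subunits, NFYA stood at -0.09, -0.01 and 0.04, and NFYB, under the filter, at -0.04, -0.19 and 0.03. CREB3, also a regulator, stood at 0.15, 0.28 and 0.50.

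The amino acid response genes, which were not among the 36, lay farther below NC. Of 11 above the filter, 5 were lower with the mimic, 8 with siPVT1-1 and 7 with siPVT1-2, with medians of -0.87, -2.07 and -1.26. Asparagine synthetase (ASNS) had differences of -1.94, -3.10 and -2.52, the PERK and ATF4 effector DDIT3 (CHOP) had -0.62, -2.36 and -1.26, and ATF4 mRNA had -0.42, -0.71 and -0.64. Lower DNAJB9, XBP1 and HERPUD1 thus stood beside lower amino acid response genes on the same arrays, and the part of that list in their difference was not tested.

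**Figure D5:**
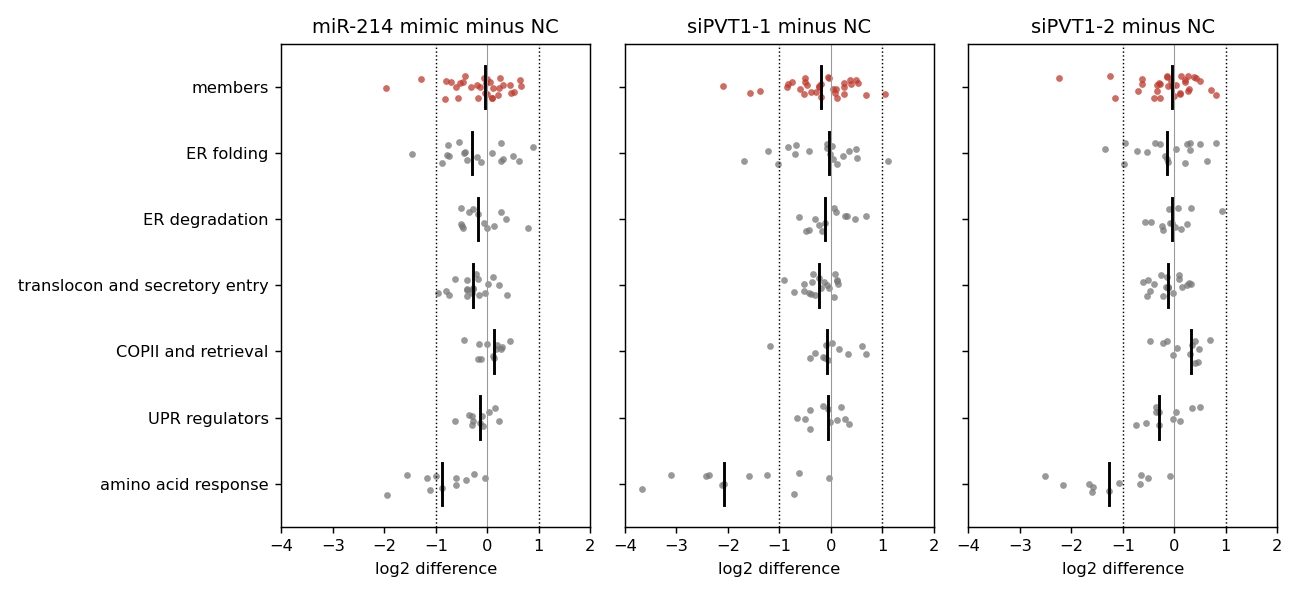
log2 difference from NC (x axis) of the 32 genes above the filter (red) and of the 6 other pathway lists (grey) for the 3 treated arrays; each point is 1 gene, the black bar is the list's median and dotted lines mark 2-fold. The amino acid response genes lie farthest left, with medians of -0.87, -2.07 and -1.26, while the other medians lie within 0.32 of NC.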

How the data were processed

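Total RNA was measured on 4 OneArray Plus arrays in 1 colour (Cy5), per the labels' protocols. The deposited values are background-subtracted intensities on a linear scale, since 74 to 131 probes per array lie below 0; the authors' software and scaling are not given in the sources used here. Here intensities were quantile-normalized (limma 3.58.1, R 4.3.3), raised to at least 64 and log2-transformed. The deposited intensities lay under this floor for 8.1 to 11.7% of probes, and the single array per group limits the precision of each value.

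Of 28264 probes, 25893 had 1 gene symbol, 0 several and 2371 none, named by the platform annotation with all 25893 Entrez identifiers found in RefSeq GRCh38.p14. The probe with the highest mean level stood for its gene; 10668 genes passed the level filter, and 2 of them at the floor on an array were left out of comparisons with that array. Further probes are given where they disagree. Motifs were searched in RefSeq promoter windows; ERSE-II and the amino acid response core were added after the windows were seen, as was the printing of the HERPUD1 window. Residues of the proteins were not analysed here.

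All 36 genes are accounted for. Full levels were given for the sensors, XBP1, HSPA5 and genes past 2-fold, and for others where a group needed them. From each further list the highest or lowest by mean difference were eligible, with DDIT3, ATF4 and ASNS. NFYA and NFYB were given beside NFYC. The genes, lists and tests were chosen with earlier results of these data known. Alternatives were 4 other scalings, 2 filters, a floor of 1, averaged probes, call sizes of 1.5-fold and 3-fold, and a limma fit that pools the siRNA arrays. The counting was tested on simulated data. Figures were drawn with matplotlib 3.10.9.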

Additional observations from a re-analysis of the deposited data

How the results depend on the processing

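There were 8 alternative scalings, filters, floor and probe rules. Of 108 differences from NC (36 genes on 3 arrays), 84 kept their sign in all 8. The 24 that did not were at most 0.39 in size. The 2 filters use the same levels and so could not change a sign, and the floor of 1 alters only values under 64. Past 2-fold, 11 of 11 kept their sign. These include ERN1 with the mimic and HSPA5 with siPVT1-2, which did not pass the level filter and are not called. At 1.5-fold the lower genes numbered 6, 7 and 6 for the mimic, siPVT1-1 and siPVT1-2 and the higher genes 2, 2 and 2; at 3-fold it was 1, 1 and 1 lower (2, 3 and 3 at 2-fold) and 0 higher with siPVT1-1. Median centring left 1 lower and 1 higher gene with siPVT1-2 and gave medians of 0.11, -0.051 and 0.19, beside a shift of all genes to 0.11, 0.11 and 0.16. It also turned the split of all genes with the mimic from 303 lower and 208 higher to 203 and 351. With siPVT1-2 that split went from 128 lower and 142 higher to 78 and 277. Counts of all genes at 3-fold are not given here. With the filter at the 75th percentile 20 of the 36 genes were compared; this left 1 lower gene with the mimic and 0 higher with siPVT1-1, and medians of 0.053 with siPVT1-2 and -0.15 between the siRNAs. Averaged probes made 1 gene higher with the mimic and 1 with siPVT1-2. The values as deposited left 0 higher with siPVT1-1. Between the mimic and both siRNAs, 2 genes passed 1.5-fold, and 1 passed 2-fold without a level filter. With both siRNA arrays as 1 group, limma called 5 genes (604 of 10666 in all) at an adjusted p under 0.05 with no limit on size, where 3 genes were past 2-fold on both siRNA arrays; it had 1 residual degree of freedom and takes the lone NC array to vary like the siRNA pair. Signal near background limits ERN1, HSPA5, ERO1B and DERL2. No paired analysis was possible because each group has 1 array.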
